A study of Mus musculus with 4 samples.

Results

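The 10 tubulin isotype genes described here are the rows named Tubb3, Tubb2a, Tubb2b, Tubb4a, Tubb4b, Tubb5 and Tubb6, which encode beta-tubulins, and Tuba1a, Tuba1b and Tuba1c, which encode alpha-tubulins. They were chosen by symbol, all 10 were found, and they are 10 of the 27998 genes in the files. Single cells were profiled from medulloblastomas of 4 littermate Atoh1-cre:SmoM2 mice at postnatal day 20, with 1 droplet library of 3' ends (10x Chromium) per mouse. Atoh1-cre switches on SmoM2, a constitutively active form of the Hedgehog receptor component Smoothened, in the precursors of cerebellar granule neurons. Every mouse carried both alleles, and no group without tumour was analysed here. The comparisons are between classes of cells inside the same tumours. A set of 4101 cells was analysed, 1363, 888, 680 and 1170 from mice 1 to 4.

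Microtubules are built from dimers of 1 alpha-tubulin and 1 beta-tubulin, and mammals encode several isotypes of each that differ mostly in the acidic tail at the carboxyl end, where motors, associated proteins and modifying enzymes bind. Dividing cells assemble a spindle from the same pool of dimers that forms the interphase network, while neurons fill their axons and dendrites with stable microtubules. TUBB3 is widely used as a marker of neurons, TUBB2A and TUBB2B are abundant in developing brain, TUBB4A in brain and in oligodendrocytes, and TUBB5 and TUBB4B are made in most tissues. Mutations of the human genes TUBA1A, TUBB2B and TUBB3 disturb cortical development.

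The libraries held 3415171, 2573901, 1679285 and 3801197 UMIs (molecules counted by their tag) for mice 1 to 4, and the cells analysed had a median of 1699 to 2564 UMIs per mouse. Cells were grouped with all tubulin genes held out. The tumour lineage was split by the expression of S and G2M phase genes, again without Tubb4b, which is commonly listed among the G2M genes. This gave 1529 G2M progenitor-like cells, 1154 S phase progenitor-like cells, 139 non-cycling differentiating granule-like cells and 646 non-cycling progenitor-like cells. A further 112 differentiating granule-like cells scored as S or G2M. Outside the lineage there were 173 astroglia-like, 146 oligodendrocyte-lineage-like and 42 myeloid-like cells. Another 5 cells belonged to other types, and 155 cells were left unnamed. Of the 3580 granule-lineage-like cells, 580 (16.2%) lay within 0.05 of a phase limit, so the phases are ranges of a score and not sharp states.

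The class names were set from marker genes, so the sums of those same markers describe the classes and are no separate check. The 12 differentiating granule markers summed to 44.4 UMIs per 10000 in differentiating cells (34.8 to 55.3 over mice) and to 11.9 (10.8 to 12.8) in non-cycling progenitor-like cells. The 10 progenitor markers did not separate these classes, with sums of 27.0 (22.3 to 31.6) in differentiating, 27.2 (24.5 to 30.9) in G2M and 28.3 (25.8 to 32.0) in non-cycling progenitor-like cells. The microglia markers C1qa, C1qb, C1qc, Trem2, Cx3cr1, P2ry12, Tmem119 and Csf1r (8 of 9) were at 0 in the differentiating cells. Of the 14 astroglia markers 11 had UMIs there, and they summed to 8.55 UMIs per 10000 (7.28 to 10.1), against 9.72 (7.48 to 11.5) in non-cycling progenitor-like cells. The same markers summed to 112 UMIs per 10000 in astroglia-like cells (86.2 to 161). Median Malat1, a nuclear RNA, was 91.1 UMIs per 10000 in G2M cells, 12.6 in astroglia-like cells, 666 in oligodendrocyte-lineage-like cells and 144 in non-cycling progenitor-like cells. The median share of mitochondrial UMIs was 5.12% in astroglia-like cells, 6.44% in oligodendrocyte-lineage-like cells and 3.11% in non-cycling progenitor-like cells. The part of both measures in the tubulin results was not tested, apart from the Malat1 settings given with the astroglia-like cells and in the closing section. Cluster make-up was uneven over mice in places: 1 progenitor-like cluster held 336 of its 475 cells from mouse 1, and another 265 of 359 from mouse 3. Across libraries 20 barcode sequences recurred, 9 of them among the cells analysed.

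The isotypes are close copies of each other, which bears on how 3' reads are assigned to them. The sequences below show the last 60 coding bases before the stop codon of the closest beta pair, read from the mm10 genome (GRCm38) with Gencode M21 gene models. They are written 5' to 3' along the gene, with the bases that differ between them in capitals.
Tubb2a, chr13:34074471-34074530, minus strand: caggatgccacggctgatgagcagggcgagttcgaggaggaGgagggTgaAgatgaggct
Tubb2b, chr13:34127474-34127533, minus strand: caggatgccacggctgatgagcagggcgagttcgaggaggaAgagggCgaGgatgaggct
In this stretch Tubb2a and Tubb2b differed at 3 bases. Over the whole coding sequence the closest alpha pair, Tuba1a and Tuba1b, was 98.3% identical (23 of 1353 bases differ) and the beta pair 96.5% (47 of 1335). Among the last 500 bases of each transcript, which 3' libraries mostly read, 68.3% of the 451 words of 50 bases of Tuba1c also occurred in transcripts of other genes. That share was 63.6% for Tuba1b, 56.3% for Tuba1a, 42.4% for Tubb2a and 35.3% for Tubb4b, the last from pseudogenes. It was 0 for Tubb3, Tubb2b, Tubb4a, Tubb5 and Tubb6. The split of reads between the 3 alpha genes, and the level of Tubb2a and Tubb4b, is uncertain to that extent.

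All 9 genes with printed positions have 4 exons on mm10. Tuba1b (chr15:98931425-98934565, minus strand), Tuba1a (chr15:98949837-98953703, minus strand) and Tuba1c (chr15:99029891-99038110, plus strand) lie side by side. The model Gm49450 overlaps both Tuba1a and Tuba1b on the same strand, and Gm41396 overlaps Tuba1b on the opposite strand. The UMIs of these models were not examined. Tubb2a (chr13:34074274-34078007, minus strand) and Tubb2b (chr13:34126748-34130466, minus strand) also neighbour each other. Tubb5 (chr17:35833921-35838306) and Tubb4a (chr17:57080066-57087782) are both on the minus strand of chromosome 17. Tubb4b lies at chr2:25222160-25224702 on the minus strand, and Fam166a, which overlaps it on the opposite strand, had 2 UMIs in the cells analysed against 5833 for Tubb4b. Tubb3 lies at chr8:123411424-123422015 on the plus strand inside the longer model Gm20388, which had 0 UMIs against 5215 for Tubb3.

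The stretches upstream of Tubb4b and Tubb5 are shown because these were the beta-tubulin genes with the higher level in G2M cells (values below). They come from RefSeq on GRCm38.p6, and capitals mark every match, on either strand, of the cell cycle motif CHR (TTTGAA), the CCAAT box (CCAAT) and the E-box CAGNTG.
Tubb4b, chr2:25224703-25224952, minus strand: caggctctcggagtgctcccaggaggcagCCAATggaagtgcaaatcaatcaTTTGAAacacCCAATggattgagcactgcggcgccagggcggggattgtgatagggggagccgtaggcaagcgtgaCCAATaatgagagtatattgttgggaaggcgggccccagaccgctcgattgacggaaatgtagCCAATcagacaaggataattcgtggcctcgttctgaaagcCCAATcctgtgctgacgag
Tubb5, chr17:35838307-35838551, minus strand: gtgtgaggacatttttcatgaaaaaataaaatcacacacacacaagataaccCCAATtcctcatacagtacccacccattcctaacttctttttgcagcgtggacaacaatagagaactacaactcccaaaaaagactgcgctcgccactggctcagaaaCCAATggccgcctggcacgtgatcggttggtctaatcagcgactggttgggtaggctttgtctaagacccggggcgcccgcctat
Upstream of Tubb4b 1 CHR letter match and 5 CCAAT matches were found, and upstream of Tubb5 2 CCAAT matches. Among the 32851 promoters of the same table, in a window of 250 bases, 16.0% held the CHR letters, 33.8% CCAAT and 44.8% the E-box letters. The table held 8 of the 10 genes, without Tubb2b and Tubb6. CCAAT was matched once in Tubb3, Tuba1a and Tuba1c. The E-box letters were matched once in Tubb2a, Tuba1b and Tuba1c. Tubb4a held none of the 3 motifs.

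In G2M progenitor-like cells Tubb4b, Tuba1b, Tubb5 and the rare Tuba1c rose against non-cycling progenitor-like cells of the same tumours, while Tuba1a was slightly higher and Tubb3 slightly lower. Of the 9 isotypes tested 5 were higher and 1 was lower, at an edgeR adjusted p below 0.05. That call was made for 20.5% of all 6628 genes tested (11.6% as higher, 8.87% as lower). The median log2 fold change of the 9 was 0.24, beside -0.02 over all genes tested. Levels are given as UMIs per 10000 UMIs of the class, which count 3' ends once per molecule.

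Tubb4b, a beta-tubulin made in most tissues and in ciliated cells, stood at 8.31, 7.76, 8.04 and 10.4 UMIs per 10000 in G2M cells of mice 1 to 4, against 2.54, 1.98, 2.77 and 3.38 in non-cycling cells. Mouse 4 was the highest in both classes, and the classes did not overlap. The fold of the means was 3.23, and the log2 fold change was 1.76 ± 0.07 (SE; edgeR adjusted p = 1.95e-29, higher in 4 of 4 mice). Tuba1b, the alpha-tubulin of most proliferating cells, stood at 14.5, 16.8, 13.4 and 14.2 in G2M cells, against 6.25, 6.35, 4.64 and 5.41 in non-cycling cells. Mouse 3 was the lowest in both classes, with no overlap. Tuba1b rose by 1.38 ± 0.06 on the log2 scale (edgeR adjusted p = 2.55e-30).

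Tubb5, the main beta-tubulin of these cells by UMIs, stood at 39.998, 39.04, 38.5 and 37.5 UMIs per 10000 in G2M cells, against 22.7, 21.7, 17.9 and 21.2 in non-cycling cells. The G2M values lay within a narrow range, well above the highest non-cycling value. Tubb5 rose by 0.91 ± 0.04 on the log2 scale (edgeR adjusted p = 9.31e-29). Tuba1c was sparse, with 147 UMIs in G2M cells, against 11 in non-cycling cells. Its levels were 0.351, 0.533, 0.268 and 0.286 UMIs per 10000 in G2M cells, against 0.0644, 0.107, 0.0644 and 0.0572 in non-cycling cells, with no overlap. Tuba1c rose by 2.35 ± 0.35 on the log2 scale (edgeR adjusted p = 2.46e-07), and it is the member whose 3' end is shared most with other genes. It passed the count filter through its G2M sums, so its call could hardly have gone the other way.

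Tuba1a, the alpha-tubulin prominent in developing neurons, had 41.4, 39.5, 40.6 and 43.5 UMIs per 10000 in G2M cells, against 36.6, 34.2, 33.2 and 39.1 in non-cycling cells. The classes were close, although they did not overlap. The log2 fold change was 0.24 ± 0.03 (edgeR adjusted p = 9.81e-08). That call was lost at Leiden resolutions 0.5 (0.14, edgeR adjusted p = 0.249) and 2 (0.11, edgeR adjusted p = 0.0843). It was also lost without the mouse as a block (0.25, edgeR adjusted p = 0.0722). Tubb3 had 2.85, 4.04, 3.40 and 5.69 in G2M cells, against 4.28, 4.55, 3.29 and 6.58 in non-cycling cells. It was lower in 3 of 4 mice, not in mouse 3, and the classes overlapped. Its log2 fold change of -0.24 ± 0.08 (edgeR adjusted p = 0.0188) was no longer called in 6 of 15 alternatives, among them the fit without mouse 1 (-0.12, edgeR adjusted p = 0.443).

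The remaining isotypes did not pass the test in G2M cells. Tubb2b averaged 8.19 ± 0.862 UMIs per 10000 in G2M cells and 7.52 ± 1.56 in non-cycling cells (SD, n = 4 mice each), with edgeR adjusted p = 0.0785. Tubb2a averaged 0.949 ± 0.117 in G2M cells and 1.17 ± 0.185 in non-cycling cells (edgeR adjusted p = 0.220). Tubb4a was low in both, at 0.228 ± 0.0335 in G2M cells and 0.320 ± 0.0255 in non-cycling cells. It was lower in 4 of 4 mice without overlap, yet the fit over all genes gave edgeR adjusted p = 0.316 from 98 UMIs in G2M cells and 48 in non-cycling cells. Tubb6, a beta-tubulin best known from non-neuronal tissue, was too rare to test in any comparison. It had 47 UMIs in all G2M cells, 10 in S phase cells and 5 in non-cycling cells. It was at 0 of 305147 UMIs in differentiating cells, which allows up to 0.0983 UMIs per 10000 (3 counts, counting error only).

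**Figure D1:**
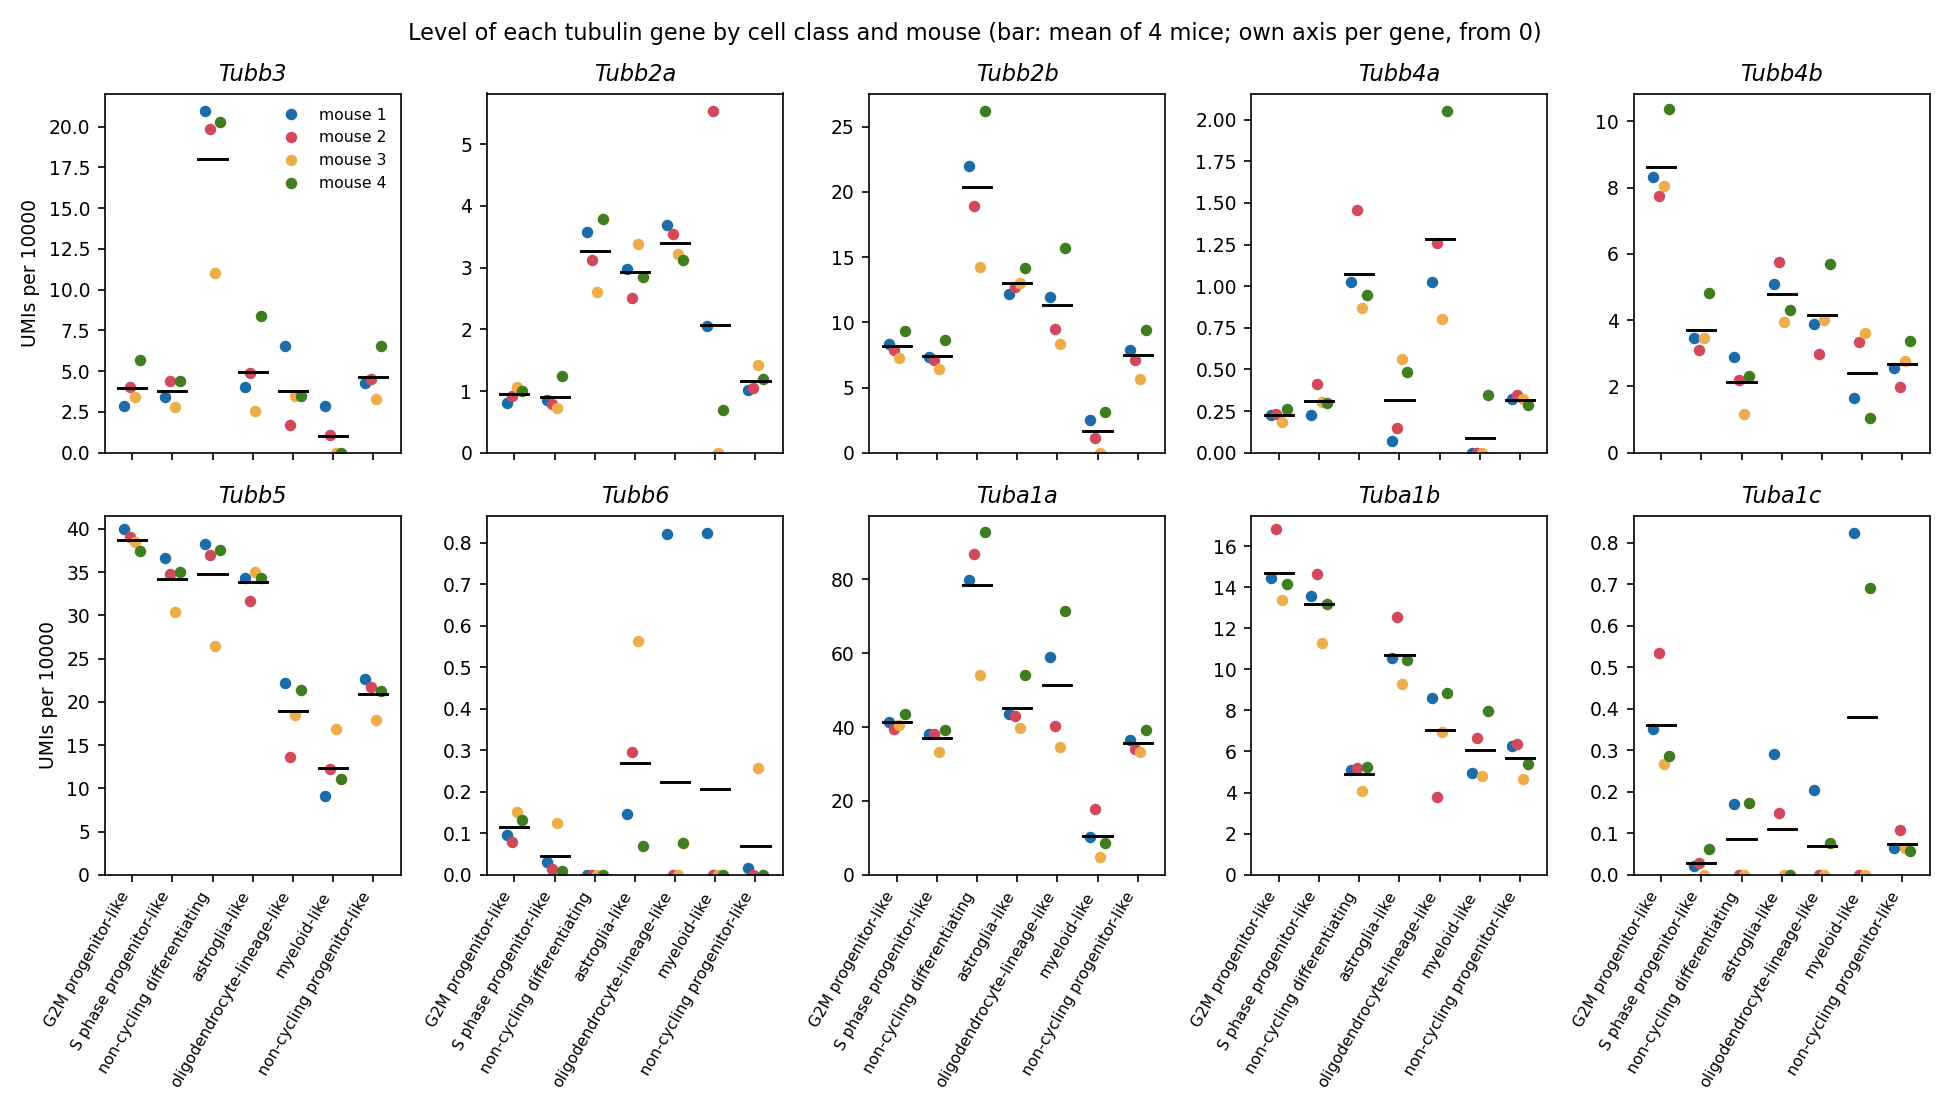
Level of each of the 10 tubulin genes in UMIs per 10000 (vertical axis, from 0, own scale per gene) in 7 cell classes (horizontal axis). Each point is 1 mouse and the bar is the mean of 4 mice. Tubb4b is highest in G2M cells (8.62 on average), Tubb3, Tubb2b and Tuba1a in differentiating cells (18.0, 20.3 and 78.4).

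In S phase Tuba1b and Tubb5 stood nearly as high as in G2M cells, while Tubb4b was only slightly above its non-cycling level. Of 8 isotypes tested against non-cycling progenitor-like cells 3 were higher and 1 lower, where 15.2% of all genes tested were called (8.94% as higher, 6.3% as lower). Their median log2 fold change was -0.00, beside -0.02 over all genes. Tuba1b had 13.5, 14.7, 11.3 and 13.2 UMIs per 10000 in S phase cells, against 6.25, 6.35, 4.64 and 5.41 in non-cycling cells. Mouse 2 was the highest and mouse 3 the lowest in both classes, and the classes did not overlap. Tuba1b rose by 1.19 ± 0.06 on the log2 scale (edgeR adjusted p = 3.66e-89).

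Tubb5 in S phase cells stood at 36.7, 34.8, 30.4 and 35.01 UMIs per 10000, against 22.7, 21.7, 17.9 and 21.2 in non-cycling cells, again with no overlap. Tubb5 rose by 0.70 ± 0.04 on the log2 scale (edgeR adjusted p = 2.04e-70). Tubb4b had 3.47, 3.09, 3.47 and 4.82 in S phase cells, against 2.54, 1.98, 2.77 and 3.38 in non-cycling cells. It was higher in 4 of 4 mice, but the classes overlapped. Its log2 fold change was 0.49 ± 0.09 (edgeR adjusted p = 1.97e-06). That call was lost when cells were thinned to 1000 UMIs (0.37, edgeR adjusted p = 0.0845) and without the mouse block (0.49, edgeR adjusted p = 0.120).

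Tubb3 was lower in S phase cells of 4 of 4 mice, with 3.41, 4.42, 2.82 and 4.40 UMIs per 10000, against 4.28, 4.55, 3.29 and 6.58 in non-cycling cells. The classes overlapped. Tubb3 fell by 0.33 ± 0.08 on the log2 scale (edgeR adjusted p = 0.000266), and the call was lost without mouse 4 (-0.21, edgeR adjusted p = 0.192), with DESeq2 and without the block. Tuba1a (0.05, edgeR adjusted p = 0.345), Tubb2b (-0.06), Tubb2a (-0.28) and Tubb4a (-0.09) did not pass the test on the log2 scale. Tuba1c had only 10 UMIs in S phase cells, and was not tested there.

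Differentiating granule-like cells out of the cell cycle differed from progenitor-like cells in most isotypes tested, and Tubb5 and Tuba1a were higher in them as they were in G2M cells. Against non-cycling progenitor-like cells Tubb3, Tubb4a, Tubb2a, Tubb2b, Tuba1a and Tubb5 rose, and Tubb4b and Tuba1b did not pass the test. That is 6 of 8 isotypes tested, all higher, where 19.2% of the 2400 genes tested were called (10.4% as higher, 8.83% as lower). The median log2 fold change of the 8 was 1.31, beside 0.01 over all genes. Median Malat1 was 236 UMIs per 10000 in the differentiating cells and 144 in the non-cycling progenitor-like cells. Leaving cells under 30 Malat1 UMIs per 10000 out of both classes changed no call of the isotypes tested in that setting. The part of the remaining difference in Malat1 was not tested.

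Tubb3, the neuronal beta-tubulin, had 21.0, 19.9, 11.03 and 20.3 UMIs per 10000 in differentiating cells, against 4.28, 4.55, 3.29 and 6.58 in non-cycling progenitor-like cells. Mouse 3 was the lowest in both classes and lay far below the other 3 mice in differentiating cells, yet its value still exceeded every progenitor value. The fold of the means was 3.86, and the log2 fold change was 1.97 ± 0.10 (edgeR adjusted p = 3.84e-77). Tuba1a had 79.8, 87.0, 54.0 and 92.9 in differentiating cells, against 36.6, 34.2, 33.2 and 39.1 in non-cycling progenitor-like cells. Mouse 4 was the highest and mouse 3 the lowest in both classes, with no overlap. The log2 fold change was 1.16 ± 0.06 (edgeR adjusted p = 3.26e-79).

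Tubb2b, a beta-tubulin of migrating and growing neurons, had 22.0, 18.9, 14.2 and 26.2 UMIs per 10000 in differentiating cells, against 7.87, 7.12, 5.67 and 9.41 in non-cycling progenitor-like cells. The mice kept the same order in both classes, and the classes did not overlap. Tubb2b rose by 1.45 ± 0.09 on the log2 scale (edgeR adjusted p = 9.49e-52). Its close relative Tubb2a stood at 3.58, 3.12, 2.61 and 3.79 in differentiating cells, against 1.01, 1.04, 1.42 and 1.20 in non-cycling progenitor-like cells. Mouse 3 was the lowest differentiating value and the highest progenitor value, and the classes were still apart. Tubb2a rose by 1.59 ± 0.21 on the log2 scale (edgeR adjusted p = 6.41e-13).

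Tubb4a, an isotype of brain and of myelinating cells, rested on 34 UMIs in differentiating cells, against 48 in non-cycling progenitor-like cells. Its levels were 1.02, 1.46, 0.871 and 0.949 UMIs per 10000 in differentiating cells, against 0.322, 0.348, 0.322 and 0.286 in non-cycling progenitor-like cells, with no overlap. Tubb4a rose by 1.79 ± 0.39 on the log2 scale (edgeR adjusted p = 7.28e-05). It passed the count filter through its differentiating sums, so its call could hardly have gone the other way. Its place in the count of isotypes called is therefore no separate evidence. Tubb5 had 38.2, 37.0, 26.4 and 37.6 in differentiating cells, against 22.7, 21.7, 17.9 and 21.2 in non-cycling progenitor-like cells. Mouse 3 was again the lowest in both, and the classes did not overlap. The log2 fold change was 0.76 ± 0.07 (edgeR adjusted p = 2.63e-24).

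Tubb4b had 2.90, 2.18, 1.16 and 2.33 UMIs per 10000 in differentiating cells, against 2.54, 1.98, 2.77 and 3.38 in non-cycling progenitor-like cells. The classes overlapped, and the log2 fold change was -0.23 ± 0.20 (edgeR adjusted p = 0.503). Tuba1b had 5.12, 5.202, 4.06 and 5.26 in differentiating cells, against 6.25, 6.35, 4.64 and 5.41 in non-cycling progenitor-like cells. It was the lower value in 4 of 4 mice, but the difference of -0.19 ± 0.14 did not pass (edgeR adjusted p = 0.414). Without mouse 3, the library with the fewest UMIs, the log2 fold changes were 1.97 for Tubb3, 1.23 for Tuba1a, 1.45 for Tubb2b, 1.67 for Tubb2a, 1.82 for Tubb4a and 0.77 for Tubb5. All 6 stayed called. At Leiden resolution 0.5, which put 352 cells in the class, they were 1.27 for Tubb3, 0.49 for Tuba1a, 0.61 for Tubb2b, 0.74 for Tubb2a and 0.27 for Tubb5. At that resolution Tubb4a was no longer called (0.81, edgeR adjusted p = 0.165).

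**Figure D2:**
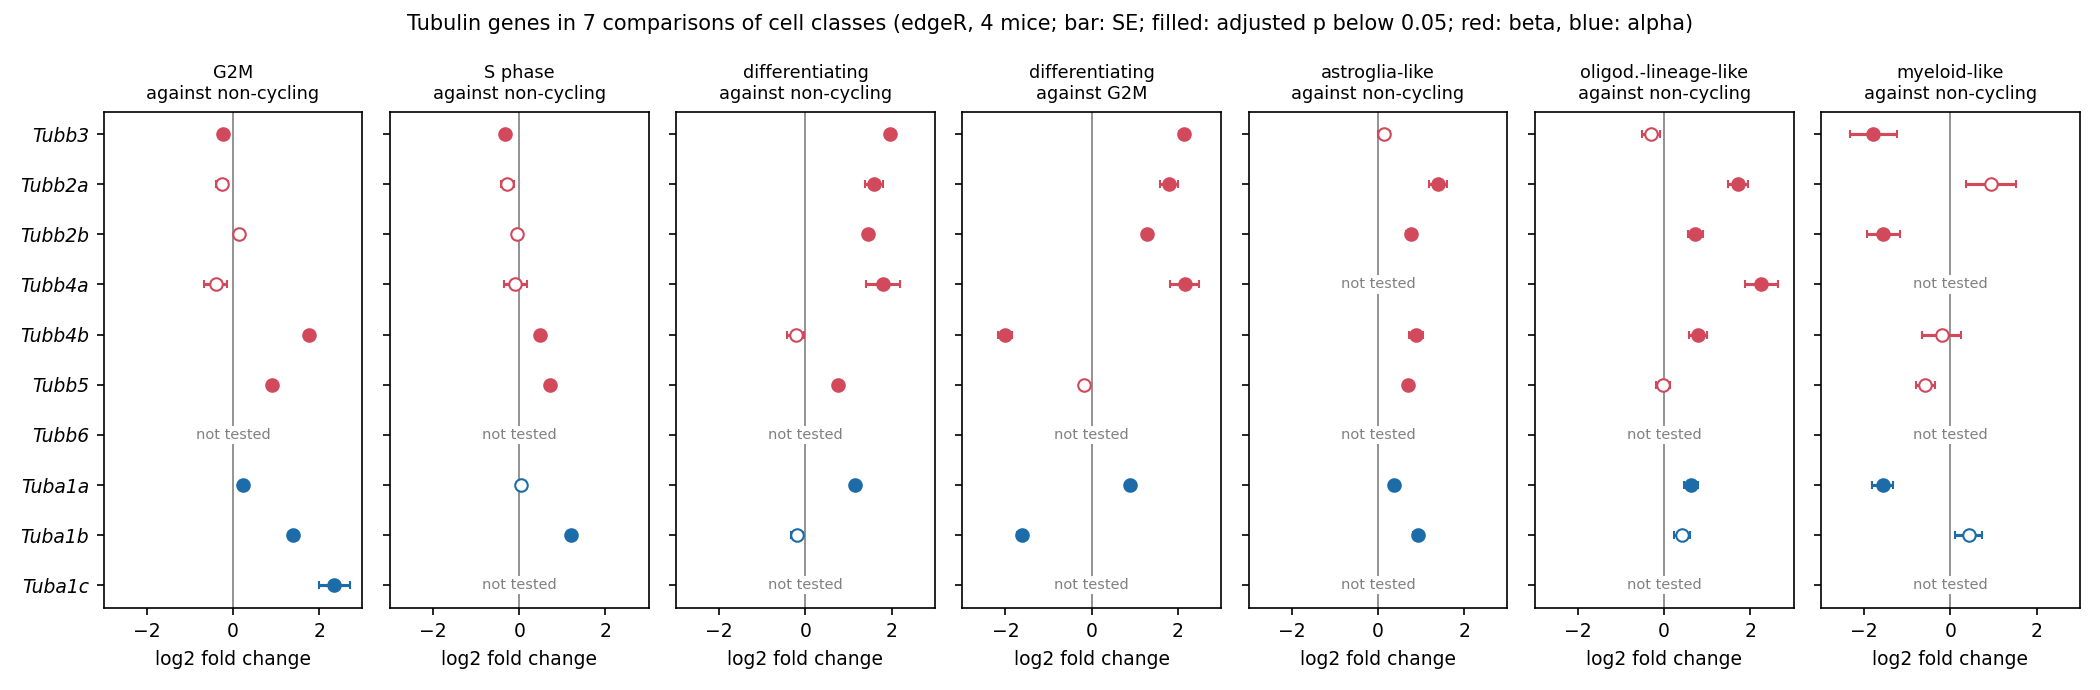
Fitted log2 fold change of each tubulin gene (horizontal axis) in 7 comparisons of cell classes, 1 panel each, with bars for the SE and filled points for adjusted p below 0.05 (edgeR, 4 mice). Beta genes are red and alpha genes blue. Tubb4b and Tuba1b lie at 1.76 and 1.38 in G2M cells and near 0 in differentiating cells, and Tubb3 lies at -0.24 in G2M cells and at 1.97 in differentiating cells.

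Set directly against G2M progenitor-like cells, differentiating cells had more Tubb4a, Tubb3, Tubb2a, Tubb2b and Tuba1a and less Tubb4b and Tuba1b. Of 8 isotypes tested 5 were higher and 2 lower, where 20.9% of all genes tested were called (9.67% as higher, 11.2% as lower). This comparison reuses the differentiating and G2M cells of the preceding ones and is no separate evidence. Tubb4a had the log2 fold change 2.16 ± 0.34 (edgeR adjusted p = 4.56e-07) and Tubb3 2.14 ± 0.11 (edgeR adjusted p = 3.65e-29). Here too Tubb4a passed the count filter through its differentiating sums, so it could hardly be called other than higher. Tubb2a followed with 1.80 ± 0.20, Tubb2b with 1.29 ± 0.09 and Tuba1a with 0.88 ± 0.08, each without overlap between the classes. The share of all genes without overlap was not worked out, here or in the other comparisons, so a lack of overlap only describes the values. At Leiden resolution 0.5 the values were 1.38 for Tubb3, 1.08 for Tubb2a, 0.62 for Tubb2b and 1.41 for Tubb4a, all still called.

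Tubb4b and Tuba1b were the 2 lower genes. Tubb4b averaged 2.14 ± 0.725 UMIs per 10000 in differentiating cells and 8.62 ± 1.19 in G2M cells (SD, n = 4 mice each), a log2 fold change of -2.01 ± 0.16 (edgeR adjusted p = 5.57e-19). Tuba1b averaged 4.91 ± 0.569 in differentiating cells and 14.7 ± 1.49 in G2M cells, a log2 fold change of -1.61 ± 0.12 (edgeR adjusted p = 1.45e-20). Neither gene overlapped between the classes. Tubb5 averaged 34.8 ± 5.63 in differentiating cells and 38.7 ± 1.06 in G2M cells, and the log2 fold change of -0.18 ± 0.08 (edgeR adjusted p = 0.0946) was called in 6 of 16 alternatives, each time as lower.

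Summed over the 10 genes, tubulin made up 163 ± 33.3 UMIs per 10000 in differentiating cells, 117 ± 3.88 in G2M cells, 101 ± 8.08 in S phase cells and 78.8 ± 7.26 in non-cycling progenitor-like cells (SD, n = 4 mice each). By mouse the sums were 174, 175, 114 and 189 in differentiating cells. Alpha-tubulin UMIs per beta-tubulin UMI came to 0.926 ± 0.0187 in G2M cells, 1.00 ± 0.0319 in S phase cells, 1.05 ± 0.0674 in differentiating cells and 1.12 ± 0.0591 in non-cycling progenitor-like cells. G2M cells were the lowest of these 4 classes in every mouse.

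Shares within the beta-tubulin and the alpha-tubulin UMIs do not depend on the scaling to the whole library. Of beta-tubulin UMIs, Tubb4b made up 14.1 ± 1.39% in G2M cells, 2.63 ± 0.496% in differentiating cells and 7.19 ± 1.51% in non-cycling progenitor-like cells. Tubb3 made up 6.53 ± 1.77% in G2M cells, 22.4 ± 2.02% in differentiating cells and 12.4 ± 2.33% in non-cycling progenitor-like cells. A share moves with the other genes of its sum, and the level of Tubb4b itself did not pass the test in differentiating cells, as given above.

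Tubb5 held the largest beta share in every class of the lineage, at 63.8 ± 3.66% in G2M cells, 44.0 ± 2.42% in differentiating cells and 56.1 ± 3.95% in non-cycling progenitor-like cells. Tubb2b held 13.4 ± 0.886% in G2M cells, 25.4 ± 2.44% in differentiating cells and 20.0 ± 1.85% in non-cycling progenitor-like cells. Of alpha-tubulin UMIs, Tuba1b made up 26.1 ± 2.41% in G2M cells, 6.002 ± 0.718% in differentiating cells and 13.6 ± 1.73% in non-cycling progenitor-like cells. Nearly all the rest was Tuba1a, with 73.3 ± 2.62% in G2M cells, 93.9 ± 0.673% in differentiating cells and 86.2 ± 1.77% in non-cycling progenitor-like cells.

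Each of these share differences from non-cycling progenitor-like cells had the same sign in 4 of 4 mice. For Tubb3 it was -5.85 points in G2M cells and 10.0 points in differentiating cells. For Tubb4b it was 6.94 points in G2M cells and -4.56 points in differentiating cells. For Tuba1b it was 12.5 points in G2M cells and -7.64 points in differentiating cells. The exact two-sided sign-flip test over 4 mice cannot go below p = 0.125, which is what each of them gave (0.182 after adjustment over 70 tests). In S phase cells the Tubb4b share of 7.36% lay close to that of non-cycling cells, while the Tuba1b share of 26.1% equalled that of G2M cells to the digits given.

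**Figure D3:**
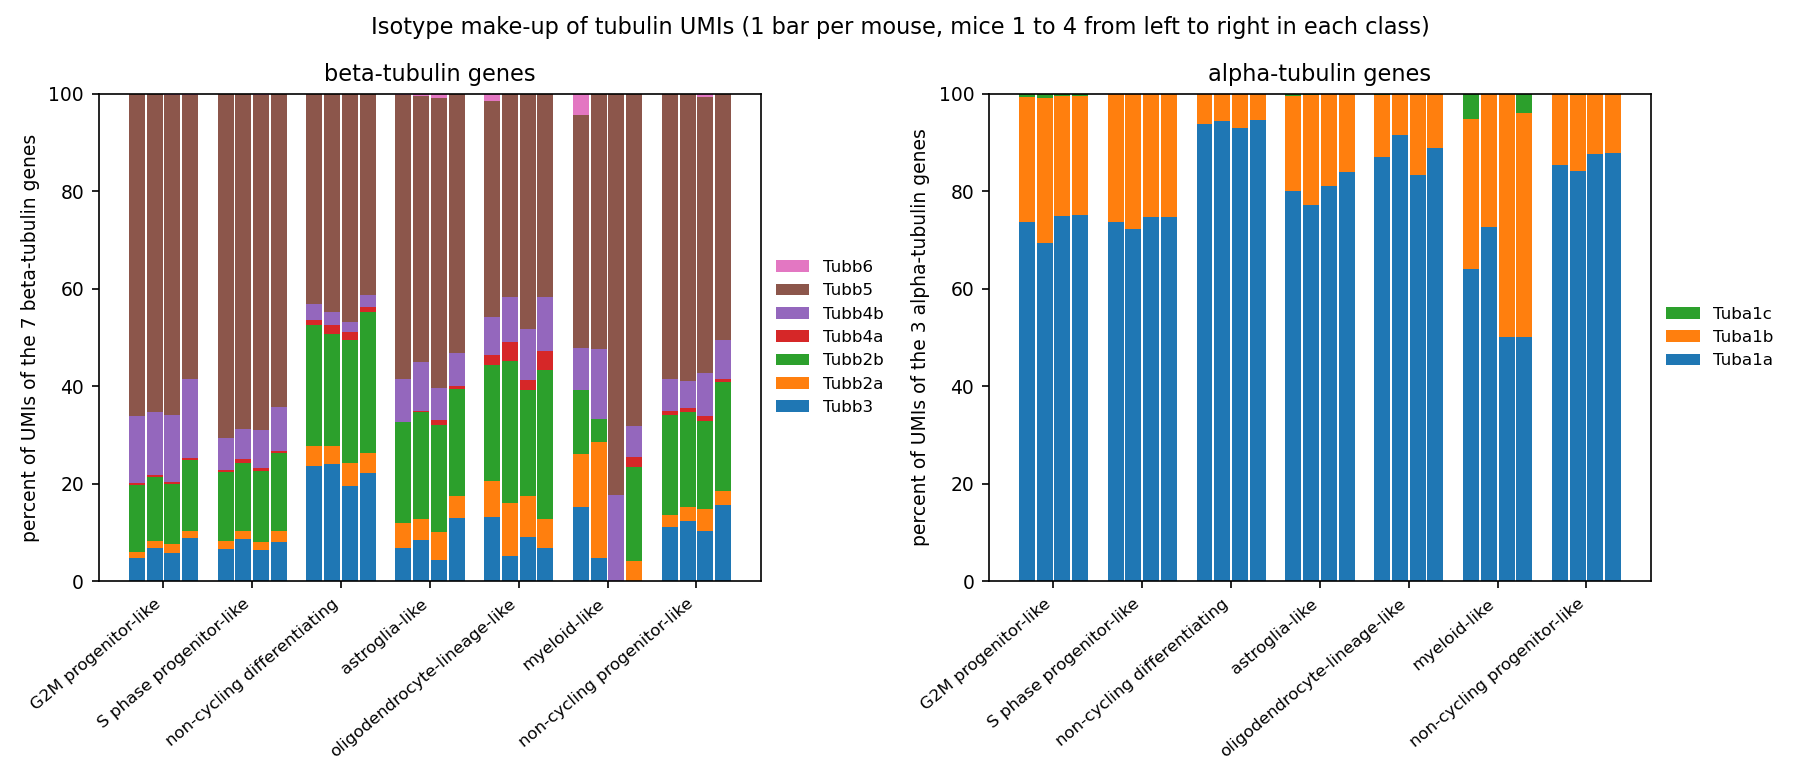
Isotype make-up of the UMIs of the 7 beta-tubulin genes (left) and the 3 alpha-tubulin genes (right) in percent, 1 stacked bar per mouse and class. Tubb4b and Tuba1b take their largest lineage shares in cycling cells (14.1% and 26.1% in G2M), and Tubb3 and Tuba1a in differentiating cells (22.4% and 93.9%).

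The share of cells with at least 1 UMI was compared after thinning each cell to 1000 UMIs, which left out 273 G2M, 16 differentiating and 40 non-cycling progenitor-like cells of lower depth. Tubb4b was found in 47.8% of G2M cells (65.7% without thinning) and in 23.6% of non-cycling progenitor-like cells (41.9% without thinning), as means over mice. Tubb3 was found in 68.0% of differentiating cells (81.9% without thinning) and in 32.4% of non-cycling progenitor-like cells (51.1% without thinning). Tuba1b was found in 66.2% of G2M cells and 45.1% of non-cycling progenitor-like cells. Each difference had one sign in 4 of 4 mice, with p = 0.125 in the exact sign-flip test (0.265 after adjustment over 70 tests). In the 31 myeloid-like cells deep enough, a class that should lack the neuronal Tubb3, 1 held a Tubb3 UMI. Tubb4b was found in 4 and Tuba1b in 18 of them, so that neither gene has a background class here. Median UMIs before thinning were 2612.5 in the G2M, 2219 in the differentiating, 1521 in the myeloid-like and 2186 in the non-cycling progenitor-like cells kept.

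Levels were also followed over the number of marker UMIs in each thinned cell, in all granule-lineage-like cells and without classes. These are ranges of a score in the same cells, and no test was made. With 0, 1, 2 to 3, 4 to 6, 7 to 10 and 11 or more G2M marker UMIs, Tubb4b averaged 3.47, 2.82, 2.68, 2.77, 3.87 and 9.70 UMIs per 10000. It was flat over the first 4 ranges and stood clearly higher in the last one alone. Tuba1b averaged 5.42, 5.93, 7.59, 9.68, 11.9 and 17.5 over the same ranges, a step up at each in these means. Single mice departed from this, such as mouse 1 with 7.84 at 0 and 6.42 at 1 marker UMI. Tubb5 averaged 22.4, 21.5, 24.6, 29.0, 33.5 and 43.2.

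Over 0, 1, 2, 3 to 4 and 5 to 7 differentiating marker UMIs, Tubb3 averaged 3.36, 4.17, 4.93, 8.56 and 13.6 UMIs per 10000. Tuba1a averaged 36.1, 38.3, 42.6, 50.9 and 66.5, and Tubb2b 7.00, 7.81, 9.50, 10.3 and 16.2. As means over mice all 3 genes were higher in each range than in the one before, but not in every mouse. Tubb2b in mouse 2 went from 9.90 at 2 to 8.25 at 3 to 4 marker UMIs. Tubb3 in mouse 4 went from 6.15 at 1 to 5.62 at 2. Tubb2a stayed at 0.849 to 1.19 up to 4 marker UMIs and stood at 3.20 at 5 to 7. Tubb4b averaged 5.51 in cells with 0 of these markers and 3.00 at 5 to 7, and Tuba1b 12.5 and 7.81 in the same ranges. In mice 1 to 4 Tubb4b went from 4.54, 5.34, 4.84 and 7.34 to 4.29, 4.84, 0 and 2.89. Tuba1b went from 11.4, 13.6, 10.4 and 14.4 to 8.10, 12.3, 1.54 and 9.33. The range of 5 to 7 held 131 cells, of which 13 came from mouse 3, and only 36 cells had more.

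**Figure D4:**
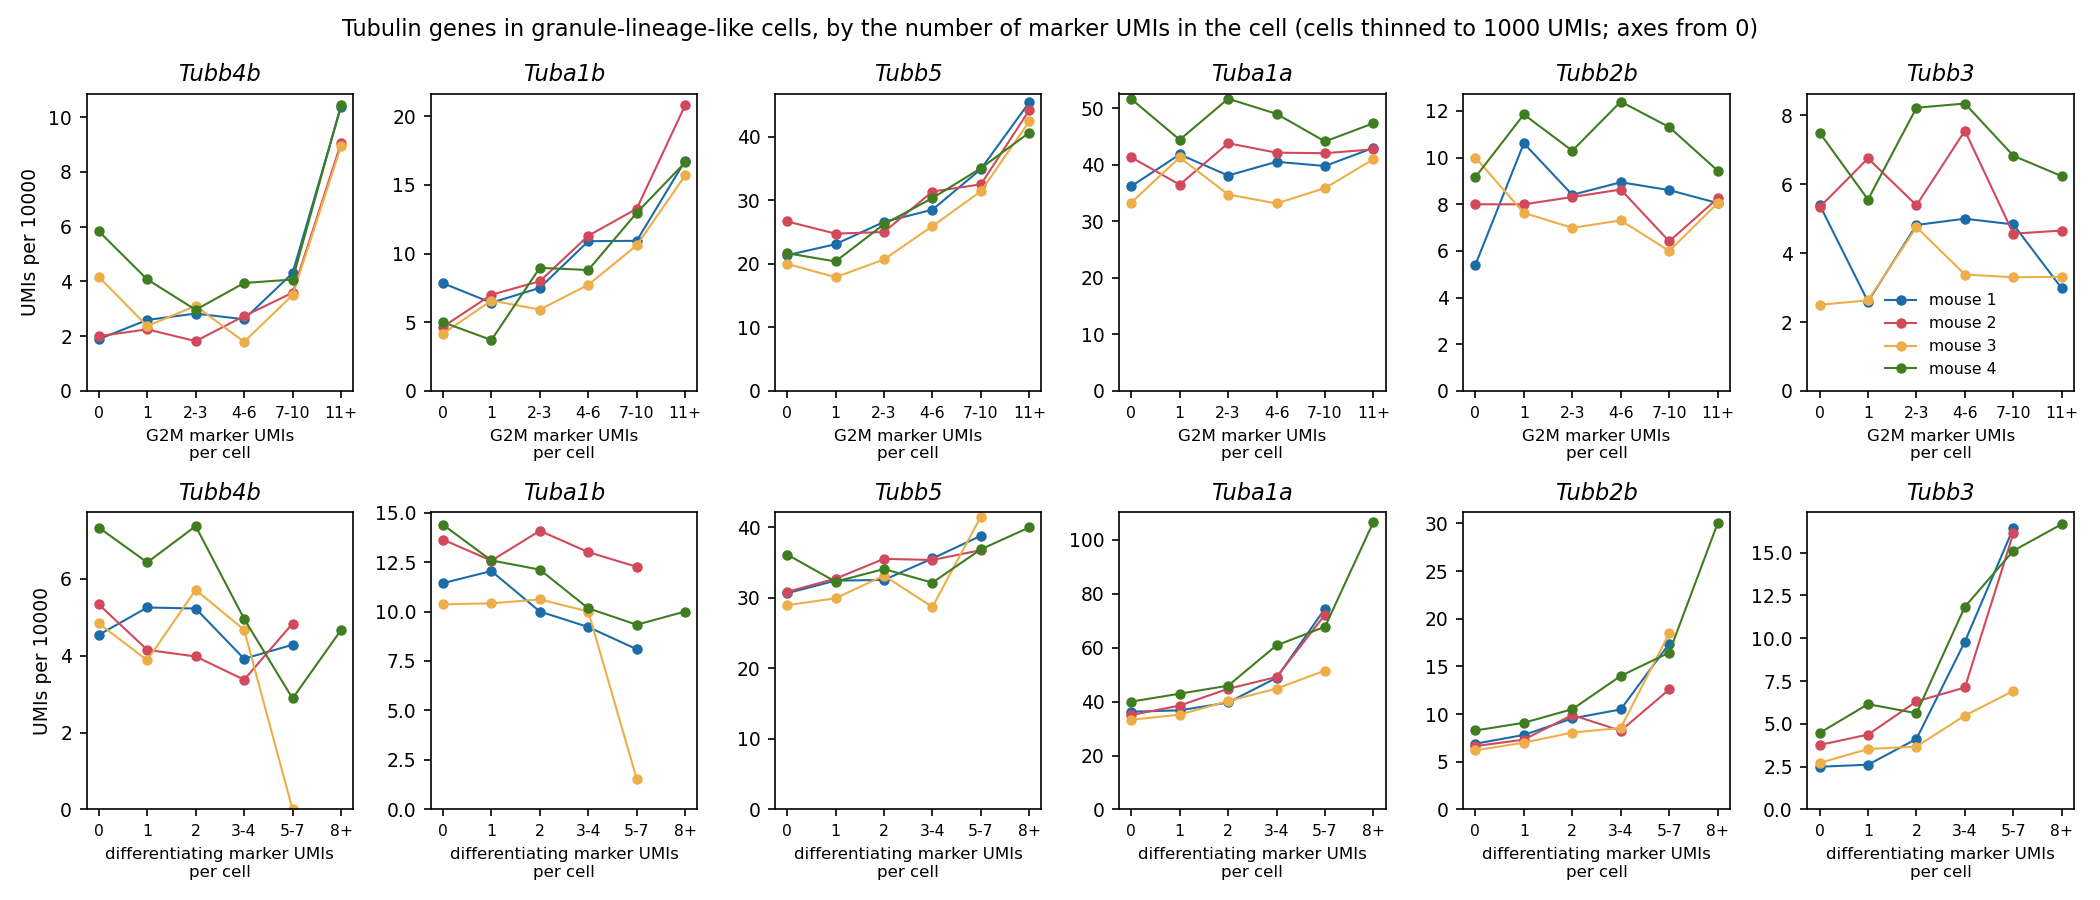
Level of 6 tubulin genes in UMIs per 10000 (vertical axis, from 0) in granule-lineage-like cells by the number of G2M marker UMIs (top) or differentiating marker UMIs (bottom) in the cell, 1 line per mouse, cells thinned to 1000 UMIs. Tubb4b averages 2.77 at 4 to 6 G2M marker UMIs and 9.70 at 11 or more, while Tubb3 averages 3.36 with 0 differentiating marker UMIs and 13.6 at 5 to 7.

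Astroglia-like cells had more Tubb2a, Tuba1b, Tubb4b, Tubb2b, Tubb5 and Tuba1a than non-cycling progenitor-like cells, and Tubb3 did not pass the test. Cells outside the lineage were not split by phase, while the non-cycling reference holds no cells scored as S or G2M. Cell type and cell cycle cannot be told apart in the astroglia-like, oligodendrocyte-lineage-like and myeloid-like comparisons, and the part of the cycle was not tested. Of 7 isotypes tested 6 were higher, where 16.2% of all genes tested were called (8.54% as higher, 7.7% as lower). Tubb2a had 2.99, 2.51, 3.38 and 2.85 UMIs per 10000 in astroglia-like cells, against 1.01, 1.04, 1.42 and 1.20 in non-cycling progenitor-like cells. Mouse 3 was the highest in both, with no overlap. Tubb2a rose by 1.39 ± 0.21 on the log2 scale (edgeR adjusted p = 9.88e-10).

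Tuba1b had 10.6, 12.6, 9.31 and 10.4 UMIs per 10000 in astroglia-like cells, against 6.25, 6.35, 4.64 and 5.41 in non-cycling progenitor-like cells, and Tubb4b had 5.10, 5.76, 3.95 and 4.31, against 2.54, 1.98, 2.77 and 3.38. Mouse 2 was the highest for both genes in astroglia-like cells, and neither gene overlapped. Their log2 fold changes were 0.93 ± 0.12 (edgeR adjusted p = 1.97e-13) for Tuba1b and 0.88 ± 0.15 (edgeR adjusted p = 4.77e-07) for Tubb4b. Tubb2b (0.77 ± 0.11), Tubb5 (0.71 ± 0.08) and Tuba1a (0.37 ± 0.07) were higher without overlap as well. Tuba1a lost its call in 6 of 14 alternatives and Tubb4b when cells were thinned (0.65, edgeR adjusted p = 0.0818). Tubb3 averaged 4.96 ± 2.497 in astroglia-like cells and 4.67 ± 1.38 in non-cycling progenitor-like cells (edgeR adjusted p = 0.541).

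Malat1 moved with this comparison, as given above, so both classes were also restricted to cells under 30 Malat1 UMIs per 10000, a limit applied to both sides after the data were seen. Only 3 mice had enough such cells, 32 genes were called in all, and of 6 isotypes tested only Tubb4b was (1.79, edgeR adjusted p = 0.00492). Tubb2b stood at 0.27, Tubb5 at 0.44, Tuba1a at 0.27 and Tuba1b at 0.16 on the log2 scale, and none of these passed. Tubb2a was too rare to test in those cells. The share of all genes called in that setting is not given here.

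Oligodendrocyte-lineage-like cells, mostly of the precursor kind (119 of 146), had more Tubb2a, Tubb4b, Tubb2b and Tuba1a than non-cycling progenitor-like cells, and more Tubb4a, which lay mainly in the other 27 cells. Of 8 isotypes tested 5 were higher than in non-cycling progenitor-like cells, where 27.6% of all genes tested were called (16.0% as higher, 11.7% as lower). Tubb4a, the isotype of myelinating cells, had 1.03, 1.26, 0.804 and 2.05 UMIs per 10000 in oligodendrocyte-lineage-like cells, against 0.322, 0.348, 0.322 and 0.286 in non-cycling progenitor-like cells. Mouse 4, which gave 24 of the 27 oligodendrocyte-like cells, was the highest and supplied 27 of the 46 UMIs, and the classes did not overlap. Of those 46 UMIs 40 came from the 27 oligodendrocyte-like cells, 11 of them from 2 cells of mouse 2. The 119 precursor-like cells held 6, a pooled level of 0.262 UMIs per 10000, against 5.25 in the oligodendrocyte-like cells. Tubb4a rose by 2.25 ± 0.38 on the log2 scale (edgeR adjusted p = 5.22e-08), and without mouse 4 or in precursor-like cells alone the gene was too rare to test. It passed the count filter through its oligodendrocyte-lineage-like sums, so its call could hardly have gone the other way.

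Tubb2a stood at 3.69, 3.55, 3.22 and 3.12 UMIs per 10000 in oligodendrocyte-lineage-like cells, against 1.01, 1.04, 1.42 and 1.20 in non-cycling progenitor-like cells, with no overlap. Tubb2a rose by 1.71 ± 0.24 on the log2 scale (edgeR adjusted p = 2.53e-11). At Leiden resolution 2, where the class held 284 cells, these values were 0.84 for Tubb2a and 1.12 for Tubb4a, both still called. In the precursor-like cells alone Tubb2a stood at 1.88 (edgeR adjusted p = 4.36e-12), Tubb4b at 0.86, Tubb2b at 0.72, Tuba1b at 0.49 and Tuba1a at 0.37 (edgeR adjusted p = 0.0486), and these 5 were called. Tubb3 and Tubb5 were not. The share of all genes called in that setting is not given here, and the 27.6% above belongs to the whole class, so the count only describes these genes.

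Tubb4b (0.79 ± 0.21, edgeR adjusted p = 0.00084), Tubb2b (0.73 ± 0.18, edgeR adjusted p = 0.000306) and Tuba1a (0.62 ± 0.17, edgeR adjusted p = 0.00124) were higher in 4 of 4 mice, but their classes overlapped. Tubb4b was not called by DESeq2 or without the gene filter, and Tubb2b not without the filter or at Leiden resolution 2. Tuba1a was lost in 5 of 14 alternatives, among them those without mouse 1 (0.50) and without mouse 4 (0.48). Tubb5 averaged 18.9 ± 3.86 UMIs per 10000 in oligodendrocyte-lineage-like cells and 20.9 ± 2.09 in non-cycling progenitor-like cells (edgeR adjusted p = 0.941). Tubb3 averaged 3.82 ± 2.01 in oligodendrocyte-lineage-like cells and 4.67 ± 1.38 in non-cycling progenitor-like cells (edgeR adjusted p = 0.291), and Tuba1b did not pass either (0.41, edgeR adjusted p = 0.0847). Tubb3 was called as lower in 3 of 14 alternatives, at -0.75 without mouse 1 (edgeR adjusted p = 0.0276), -0.91 after thinning and -0.93 with the phase scores regressed out. Tuba1b was called as higher in 4 of 14, at 0.68 without mouse 2, 0.58 after thinning, 0.50 without low-Malat1 cells and 0.49 in precursor-like cells. Of beta-tubulin UMIs the class held 3.00% Tubb4a and 8.18% Tubb2a, against 0.870% and 3.20% in non-cycling progenitor-like cells, and the Tubb4a share rests on the oligodendrocyte-like cells in the same way.

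Myeloid-like cells, 42 in all with 5 to 16 per mouse, had less Tuba1a, Tubb2b and Tubb3 than non-cycling progenitor-like cells, and the other 4 isotypes tested did not pass. The class was mixed. Its 9 microglia markers summed to 163 UMIs per 10000 (111 to 194 over mice) and its neutrophil markers to 157 (0 to 546), while neutrophil markers were at 0 in non-cycling progenitor-like cells. The astroglia list summed to 306 (184 to 412) in myeloid-like cells, with Aqp4, Gfap, Sox9, Gja1, S100b and Gdf10 at 0. The part of this mixture in the tubulin values was not tested. All 10 genes together came to 36.6 ± 7.70 UMIs per 10000, against 78.8 ± 7.26 in non-cycling progenitor-like cells (SD, n = 4 mice each). Of 7 isotypes tested 3 were lower, where 27.9% of all genes tested were called (14.9% as higher, 13.1% as lower) and the median of all genes was itself -0.24 on the log2 scale (-0.39 with RLE scaling). Of the genes called, 249 were higher and 219 lower, and with RLE scaling 240 were higher and 327 lower.

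Tuba1a had 10.3, 17.7, 4.81 and 8.64 UMIs per 10000 in myeloid-like cells, against 36.6, 34.2, 33.2 and 39.1 in non-cycling progenitor-like cells, far apart in all mice. The log2 fold change was -1.57 ± 0.25 (edgeR adjusted p = 2.70e-06). Tubb2b had 2.47, 1.11, 0 and 3.11 in myeloid-like cells, against 7.87, 7.12, 5.67 and 9.41 in non-cycling progenitor-like cells, again without overlap. Tubb2b fell by 1.56 ± 0.39 on the log2 scale (edgeR adjusted p = 0.00199). Tubb3 rested on 8 UMIs, found in mice 1 and 2 and at 0 in mice 3 and 4. Its log2 fold change of -1.79 ± 0.54 (edgeR adjusted p = 0.0106) was -4.26 without mouse 1 and -0.97 without mouse 4, where the call was lost. Tubb5 was lower in 4 of 4 mice without overlap but did not pass (-0.58 ± 0.23, edgeR adjusted p = 0.0567). It was called as lower in 10 of 13 alternatives. Tubb2a (0.94, edgeR adjusted p = 0.241), Tuba1b (0.42, edgeR adjusted p = 0.324) and Tubb4b (-0.20, edgeR adjusted p = 0.785) overlapped and did not pass. Tuba1c with 4 UMIs, Tubb6 with 2 and Tubb4a with 1 were too rare to test.

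Over the 7 classes compared, the order of mean levels differed by isotype. Tubb3 was highest in differentiating cells, and the astroglia-like, non-cycling, G2M, oligodendrocyte-lineage-like and S phase means lay between 4.96 and 3.76 with overlapping mice. Myeloid-like cells came last at 0.998. Tubb4b was highest in G2M cells at 8.62, followed by astroglia-like cells at 4.78, oligodendrocyte-lineage-like cells at 4.15 and S phase cells at 3.71, which overlapped with each other. Tubb2a was highest in oligodendrocyte-lineage-like cells (3.39), differentiating cells (3.28) and astroglia-like cells (2.93), again with overlap. The cycling classes were lowest at 0.949 and 0.904. Tuba1b ran from 14.7 in G2M and 13.2 in S phase cells, which overlapped, over 10.7 in astroglia-like cells to 4.91 in differentiating cells.

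Genes that handle tubulin were read from 6 lists. Each count below stands beside the share of all genes called in the same comparison and direction, and a count such as 1 of 9 lies near that share. Microtubule nucleation, the work of gamma-tubulin ring complexes and the augmin (HAUS) subunits that branch spindle microtubules, had 8 of 16 tested genes higher and 0 lower in G2M cells against non-cycling progenitor-like cells (median log2 fold change 0.52), where 11.6% of all genes were higher and 8.87% lower. Augmin subunit Haus4 averaged 0.487 ± 0.0474 UMIs per 10000 in G2M cells and 0.155 ± 0.116 in non-cycling cells, a log2 fold change of 1.44 (edgeR adjusted p = 4.29e-05). The centrosomal protein gene Cdk5rap2 (1.35) and Haus3 (1.27) followed. Haus4 and Haus3 had 28 UMIs each in non-cycling cells, and Cdk5rap2 had 40. Genes this sparse pass the count filter mostly through their G2M sums, which favours calls as higher. The part of the filter in the nucleation count was not tested, and the same limit holds for other sparse genes of these lists. Gamma-tubulin itself, Tubg1, the only one of the other tubulins deep enough to test, was higher by 0.64 (edgeR adjusted p = 0.000927).

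Of the chaperones that fold tubulin and join it into dimers 4 of 20 were higher and 0 lower in G2M cells, among them the prefoldin gene Vbp1 (0.64), the cofactor gene Tbcb (0.41) and the chaperonin gene Tcp1 (0.36). Among tubulin modifiers and severing proteins Fignl1 was higher (1.42) and Svbp, the partner of the vasohibin detyrosinases, lower (-0.44), of 9 tested. The neuronal microtubule-associated genes had 1 of 9 higher, Tppp3 (0.54), and 1 lower, Dcx (-0.56, lower in 3 of 4 mice and named after its value was seen). Of the general microtubule-associated and plus-end genes 2 of 7 were higher, Map4 (0.84) and Mapre1 (0.36).

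In S phase cells, where 8.94% of all genes were higher and 6.3% lower, 4 of 18 nucleation genes were higher and 0 lower, all of them augmin subunits (Haus4 1.81, Haus5 1.49, Haus8 1.47 and, named after its value was seen, Haus1 0.81). Haus4, Haus5 and Haus8 had 28, 25 and 18 UMIs in non-cycling cells. They passed the count filter mostly through their S phase sums, which favours calls as higher. Tubg1 was higher by 0.81 and Fignl1, 1 of 9 in its list, by 1.94, the latter on 28 UMIs in non-cycling cells. Of 20 folding genes 2 were higher, Tbcb (0.43) and Tcp1 (0.35), and Pfdn5 was lower (-0.24). Neuronal microtubule-associated genes had 0 of 9 higher and 2 lower, Map1b (-0.36) and, named after its value was seen, Dcx (-0.55). None of 7 general genes was called by edgeR.

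In differentiating cells 4 of 5 tested neuronal microtubule-associated genes were higher than in non-cycling progenitor-like cells and 0 were lower, where 10.4% of all genes were higher and 8.83% lower. Map1b, which stabilises microtubules in growing axons, averaged 13.6 ± 2.65 UMIs per 10000 in differentiating cells and 4.73 ± 0.245 in non-cycling progenitor-like cells (log2 fold change 1.58, edgeR adjusted p = 1.49e-43). Mapt, which encodes tau, averaged 1.85 ± 0.499 in differentiating cells and 0.590 ± 0.108 in non-cycling progenitor-like cells (1.70, edgeR adjusted p = 1.74e-07). Dcx, which encodes doublecortin, stood at 1.09, and Map2 at 1.04 in 3 of 4 mice, named after its value was seen. The other lists gave few calls there, with Akap9 higher by 0.61 among 2 nucleation genes tested and Cct4, named after its value was seen, lower by -0.49 among 15 folding genes.

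Against G2M cells, where 9.67% of all genes were higher and 11.2% lower, differentiating cells had 5 of 8 neuronal microtubule-associated genes higher, with Map1a (1.89), Dcx (1.66) and Map1b (1.61) named by the rule. They had 5 of 11 nucleation genes lower, among them Haus3 (-2.74), Haus4 (-2.31) and Cdk5rap2 (-1.86), each on 6 or fewer UMIs in differentiating cells, and 4 of 19 folding genes lower, among them Vbp1 (-0.46). These 3 nucleation genes passed the count filter through their G2M sums of 181, 201 and 291 UMIs. They could hardly be called other than lower, so the nucleation count is no separate evidence.

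In oligodendrocyte-lineage-like cells the deacetylase gene Sirt2, known from myelin, averaged 7.43 ± 6.83 UMIs per 10000, against 0.813 ± 0.262 in non-cycling progenitor-like cells (log2 fold change 3.30, edgeR adjusted p = 8.98e-47). Mapt (2.07) and Map2 (0.93) were higher, 2 of 5 in their list, and of 15 folding genes Tbcb (0.64) was higher and Pfdn4 (-0.82) and Tbca (-0.70) were lower, where 16.0% of all genes were higher and 11.7% lower. In myeloid-like cells 5 of 15 folding genes were lower, each on 14 or fewer UMIs, and Sirt2 was higher (1.78), where 14.9% of all genes were higher and 13.1% lower. In astroglia-like cells none of the 26 genes tested in the 6 lists passed edgeR's test, where 16.2% of all genes did.

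The genes whose level was most like that of each isotype were ranked by Pearson's r of log2(CPM + 10) over the 28 sums of 4 mice by 7 classes, centred per mouse, among 3300 genes. The sums share libraries and classes, so r is a description. Tubb3 was most like Hist3h2ba (0.945), Nrn1 (0.938) and Ttc9b (0.921). Tubb2b was most like Ttc3 (0.961), Tcf4 (0.946) and the growth cone gene Gap43 (0.937), and Tuba1a like Ank2 (0.941), Nnat (0.938) and Apc (0.936). Tubb4a was most like Mapt (0.896), and Tubb2a like Atp6v0b (0.833). Nrn1 and Gap43 are markers that set the differentiating class, and Gap43, Nnat and Atp6v0b were also among the genes used for clustering, so that part of this likeness was built in.

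Tubb4b was most like the mitotic genes Cdc20 (0.881), Cks2 (0.870) and Tpx2 (0.863). Tuba1b was most like Hmgb2 (0.903), Aurkb (0.890) and Top2a (0.843). All 6 of these belong to the list that set the G2M phase, so their likeness was in part built in. Tubb5 was most like Stmn1 (0.946), which encodes a tubulin-binding protein, Ptma (0.877), also used for clustering, and Ube2e3 (0.871). Tubb6 and Tuba1c, the rare genes, reached at most 0.597 and 0.571.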

How the data were processed

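The authors deposited 4 tables, 1 per mouse, of raw UMI counts for each gene in each barcode, as their headers and whole numbers show. The submitters' processing notes list Cell Ranger 2.0.2, Seurat and mm10, and the annotation release is not given in the sources used here. Tumours were treated with Accutase for 20 minutes, per the labels' protocols, living cells were sorted with 7-AAD, and 10000 cells were loaded per lane. Reads were 75 bases long, and the library of mouse 1 was sequenced 2 times. A viability sort can set the shares of cell classes. The series' design text states 4749 cells, while the tables hold 5670 barcodes. At least 500 genes per cell left 4620 of them, and at most 10% mitochondrial UMIs left 4137. Scrublet marked 36 cells (0.87%), which were removed, leaving 4101.

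Cells were clustered in scanpy 1.11.5 (2000 variable genes, 30 principal components, 15 neighbours, Leiden resolution 1) without tubulins, the gene lists, mitochondrial, ribosomal and sex-linked genes. Clusters outside the granule lineage were named from at least 3 markers of a type, with a marker of that type among their 10 leading genes. Clusters with the markers but no such leading gene were left unnamed. A lineage cluster was called differentiating where its median differentiating marker lay at least 0.5 on the log2 scale above the other lineage cells and above the median progenitor marker, and every other lineage cluster was called progenitor-like by default, with no marker minimum. These limits were set after the data were seen, and clusters with markers of other cell types were clustered a second time. Phases were scored with 43 S and 53 G2M genes. The classes come from other genes of the same cells, and a difference from the study may come from rebuilt names. For each class the counts of a mouse were added up, and the sums were compared in edgeR 4.0.16 (R 4.3.3) by the quasi-likelihood test with TMM scaling, its default filter on low counts and Benjamini-Hochberg adjustment over all genes tested. At least 10 cells per mouse were needed (5 for myeloid-like cells). For astroglia-like cells this was lowered to 5 in the low-Malat1 setting and to 3 in the highest-marker cluster. A gene could pass the low-count filter through 1 class alone, and few UMIs in the other class favour a call towards the first. Standard errors were worked back from the test, and the test was checked on simulated data. DESeq2 1.42.0 and the other settings of the closing section were alternatives.

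The mouse was a block in the main fit, since all classes of a tumour share their animal and their library. Deviations of the 2 classes of a mouse correlated at 0.216 to 0.453 between G2M and non-cycling cells and at 0.126 to 0.286 between differentiating and non-cycling cells. For the myeloid-like cells the correlations lay between -0.0065 and 0.0819. The 4 mice are littermates, and the tests rest on the spread between them. In edgeR that spread is estimated with information shared over genes. Its p-values and SE therefore do not measure the spread of a single gene between mice, which the values per mouse show. Shares were compared by exact two-sided sign-flip permutation over mice, and counting limits cover counting error only.

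The 10 genes, the 6 lists and the markers were chosen with earlier results of these data known. From each list the text names, per comparison, up to 3 genes higher and 3 lower that passed the test and changed the same way in every mouse, with the largest log2 fold change. Genes named outside this rule are marked as such. Comparisons with non-cycling progenitor-like cells share those cells, so their values stand side by side without a test between them.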

Additional observations from a re-analysis of the deposited data

Results flagged for a closer look

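Of 70 groups of 4 mice examined (10 genes in 7 classes), 8 held 1 value whose gap to the nearest other mouse took up most of the group's range. Chance flags about 1 group in 20.

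In differentiating granule-like cells mouse 3 stood apart for 3 genes. Tubb3 was 11.03 UMIs per 10000 in mouse 3 (38 UMIs), against 19.9 to 21.0 in the other mice. Tubb5 was 26.4 in mouse 3 (91 UMIs), against 37.0 to 38.2. Tuba1b was 4.06 in mouse 3 (14 UMIs), against 5.12 to 5.26. Mouse 3 has the library with the fewest UMIs, and the part of depth in these values was not tested. Without mouse 3 the log2 fold change of Tubb3 against non-cycling progenitor-like cells was 1.97, as with it.

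The other 5 rest on 4 or fewer UMIs each. Tubb6 was 0.258 UMIs per 10000 in non-cycling progenitor-like cells of mouse 3 (4 UMIs), 0.821 in oligodendrocyte-lineage-like cells of mouse 1 (4 UMIs) and 0.824 in myeloid-like cells of mouse 1 (2 UMIs). Tubb4a was 0.346 in myeloid-like cells of mouse 4 (1 UMI) and 0 in the other mice. Tuba1c was 0.107 in non-cycling progenitor-like cells of mouse 2 (4 UMIs).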

How the results depend on the processing

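Over the alternatives for the fitted log2 fold changes of single tubulin genes, 706 values kept their direction and their side of the threshold, 37 lost their call, 29 gained one and 21 changed sign. All 340 alternative isotype shares moved by less than the spread between mice. Of the alternative differences in the share of cells with a UMI 391 did so and 49 moved more, 27 without thinning and 22 at 2000 UMIs, among the second set Tubb4b in G2M against non-cycling cells. The low-Malat1 matching on both sides, the precursor-only and highest-marker clusters, the unthinned deep cells and the addition of the unnamed cluster were chosen after seeing the data.

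The number of genes called depended on the setting, and for each setting the cause was not tested. For G2M cells 1356 genes were called, against 483 with DESeq2, 493 with no replicate block, 540 after thinning and 901 to 1344 without one replicate. For S phase cells 941 were called, against 345 with DESeq2, 331 without the block, 379 after thinning and 674 to 991 without one replicate, and 2 tubulin genes instead of 4 without the block. For differentiating against non-cycling progenitor-like cells 462 were called, against 235 with DESeq2, 294 without the block, 210 after thinning, 302 at Leiden resolution 0.5 and 303 to 528 without one replicate. Against G2M cells 1083 were called, against 680 with DESeq2, 437 after thinning and 694 to 1177 without one replicate. For astroglia-like cells 405 were called, against 224 with DESeq2, 215 without the block, 145 after thinning, 216 at Leiden resolution 0.5, 223 in the highest-marker cluster, 32 in low-Malat1 cells and 237 to 486 without one replicate. In the low-Malat1 cells 1 tubulin gene instead of 6 was called. For oligodendrocyte-lineage-like cells 713 were called, against 1422 without the gene filter, 363 after thinning and 472 at Leiden resolution 2. Their tubulin genes called were 5, against 3 with DESeq2, 2 without the filter, 3 without replicate 4 and 3 at Leiden resolution 2. For myeloid-like cells 468 were called, against 1288 without the filter and 218 after thinning.

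The log2 fold changes that changed sign had not passed the test in the main setting. In G2M cells Tubb2b was -0.040 at Leiden resolution 2 and -0.0071 with the scores regressed out. In S phase cells Tubb4a lay between -0.23 and 0.11 without one replicate (0.11 without replicate 1), and Tuba1a was -0.078 at Leiden resolutions 0.5 and 2 and -0.096 with the scores regressed out. In differentiating cells Tubb4b was 0.057 at Leiden resolution 0.5, 0.042 with clear phases and 0.011 with all phases, where Tuba1b was 0.048. In astroglia-like cells Tubb3 lay between -0.047 (without replicate 4) and 0.25 without one replicate, and was -0.021 after thinning, -0.24 at Leiden resolution 2 and -0.14 with the scores regressed out. In oligodendrocyte-lineage-like cells Tubb5 lay between -0.16 and 0.081 (without replicate 2), and was 0.17 after thinning, 0.0068 at Leiden resolution 2 and 0.051 in precursor-like cells. In myeloid-like cells Tubb4b lay between -0.63 and 0.18 (without replicate 4), and Tuba1b was -0.43 without the filter and -0.013 without low-Malat1 cells.

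Leaving out the replicate block ended the calls of Tuba1a (G2M), Tubb3 (G2M and S phase) and Tubb4b (S phase), gave Tubb5 in myeloid-like cells one (-0.57, edgeR adjusted p = 0.0456) and changed no other call of a tubulin gene. Astroglia-like cells without those under 30 Malat1 UMIs per 10000 could not be run, since mice 2 and 3 kept too few. Tubb6, Tuba1c and Tubb4a are limited by their few UMIs.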

Other observations

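A cluster of 155 cells (31, 36, 11 and 77 from mice 1 to 4) was given no name. Rab3a, Stmn2, Mllt11 and Tubb3 were among its 10 leading genes. The astroglia markers past the limit were 5 (Aldoc, Fabp7, S100b, Apoe and Mt3), none of them a leading gene. The differentiating markers past it were Gap43, Stmn2 and Neurod1. The cluster entered no main comparison, and its non-cycling cells joined the differentiating class in an alternative only. At Leiden resolution 2 only 5 cells were left unnamed. The cluster had a median of 1215 UMIs per cell and 7.26 Malat1 UMIs per 10000. The differentiating granule-like cells had 236 Malat1 UMIs per 10000. Its tubulin levels were 170 ± 7.91 UMIs per 10000 for all 10 genes, 13.1 ± 2.31 for Tubb3, 21.9 ± 3.08 for Tubb2b, 77.7 ± 5.92 for Tuba1a and 42.2 ± 4.42 for Tubb5 (SD, n = 4 mice). Tuba1b stood at 8.20 ± 2.02 (6.02 to 10.9) in this cluster and at 4.91 (4.06 to 5.26) in the differentiating cells, without overlap. Tubb4a stood at 0.676 ± 0.134 in the cluster and at 1.07 in the differentiating cells, and Tubb3 averaged 18.0 in the differentiating cells. Tuba1c was at 0 of 225043 UMIs there, which allows up to 0.133 UMIs per 10000.

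The 112 differentiating granule-like cells that scored as S or G2M entered no main comparison. They were part of the alternative with differentiating cells of all phases and of the ranges of marker UMIs. Their Tubb3 level was 15.3, 14.01, 6.76 and 15.2 UMIs per 10000 in mice 1 to 4, and their Tuba1a level 66.8, 71.8, 57.1 and 89.6. Tubb4b averaged 3.50 ± 1.37 and Tuba1b 6.86 ± 3.09 in them, and all 10 genes together 152 ± 23.3 (SD, n = 4 mice). Mouse 3 was the lowest for Tubb3 in these cells as well.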
